A study of Homo sapiens with 4 samples.

Results

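The genes described here are a small panel that rises and falls with ERK signalling: the dual-specificity phosphatases DUSP1, DUSP4, DUSP5, DUSP6 and DUSP7, the Sprouty genes SPRY2 and SPRY4, the Sprouty-related SPRED1, and the ETS factors ETV4 and ETV5. They were chosen by name as 10 well-known outputs of the pathway, with earlier results of these data known. Of the 10, 5 were in the table of 14431 genes and all 5 passed the filter on low values. DUSP4, DUSP5, DUSP6, SPRY4 and ETV4 were not analysed here. RNA-seq was performed on HGC27, an established line of human gastric cancer cells, in 2 control libraries labelled as wild type and 2 libraries from cells in which AARS1 was knocked down with siRNA (siAARS1). AARS1 is the alanyl-tRNA synthetase, which charges tRNA with alanine. Both groups were grown in DMEM lacking glucose, with serum and 25 mM lactate, so lactate itself was not compared. The labels give 24 h under lactate and the text of the study gives a shorter time, so the duration is uncertain. A knockdown lowers and does not remove its target, and nothing in the labels says whether the libraries of a group came from separate cultures, so the p-values measure the spread between these libraries, which may be technical.

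The ERK cascade carries growth factor signals from receptor tyrosine kinases through RAS, RAF and MEK to the ERK kinases, and it is a common driver of proliferation in epithelial tumours. Active ERK induces its own brakes within the cell: MAP kinase phosphatases of the DUSP family remove phosphate from the kinases, and Sprouty and SPRED proteins act further up, near the receptor and RAS. Because their transcripts follow ERK activity, these genes together with the PEA3 subfamily of ETS factors are often read as a measure of the output of the pathway.

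Among the 5 genes analysed, ETV5, SPRY2 and DUSP1 fell with AARS1 knockdown, to 34.6%, 52.5% and 64.8% of control. SPRED1 rose to 138% of control. DUSP7 stood at 92.8% of control and did not pass the test. The fall of ETV5, SPRY2 and DUSP1 was present under every alternative processing tried. Of these alternatives 4 leave a group with 1 library, and some others cannot move the fold change. The direction of SPRED1 and of DUSP7, in contrast, depended on whether a trend with transcript composition was taken out.

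Sequences upstream of the members are shown because 2 of the genes that fell, DUSP1 and SPRY2, and 1 that was not called, DUSP7, have a window there which lies outside the annotated gene. Each is the run of 250 bases before a RefSeq start (GRCh38.p14), on the minus strand in all 3 genes. The DUSP1 window is chr5:172771196-172771445, that of DUSP7 is chr3:52056572-52056821, and that of SPRY2 is chr13:80341127-80341376. Capitals mark TGACG, the core of the cyclic AMP response element bound by CREB and ATF factors, and CCGGAA, an ETS core, on either strand.
DUSP1: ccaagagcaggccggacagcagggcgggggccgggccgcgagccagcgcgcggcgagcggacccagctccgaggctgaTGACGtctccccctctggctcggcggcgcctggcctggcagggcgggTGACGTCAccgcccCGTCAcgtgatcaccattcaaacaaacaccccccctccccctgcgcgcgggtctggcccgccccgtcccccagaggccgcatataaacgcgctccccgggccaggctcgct
DUSP7: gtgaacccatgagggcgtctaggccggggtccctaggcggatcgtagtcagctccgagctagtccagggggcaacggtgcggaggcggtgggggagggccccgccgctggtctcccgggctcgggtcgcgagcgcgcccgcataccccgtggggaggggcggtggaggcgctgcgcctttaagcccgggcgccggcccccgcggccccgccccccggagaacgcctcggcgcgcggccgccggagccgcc
SPRY2: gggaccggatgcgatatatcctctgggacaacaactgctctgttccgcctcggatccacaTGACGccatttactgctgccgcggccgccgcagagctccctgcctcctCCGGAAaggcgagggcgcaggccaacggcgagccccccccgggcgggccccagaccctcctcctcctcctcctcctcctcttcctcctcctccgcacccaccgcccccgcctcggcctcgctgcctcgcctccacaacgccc

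The DUSP1 window held 4 matches to TGACG, of which 2 are the opposite strands of 1 full palindrome TGACGTCA at bases 125 to 118 before the start. TGACG was present in 21.2% of 35116 promoters of the same length and TGACGTCA in 1.65%. The SPRY2 window held TGACG once, at bases 190 to 186 before the start, and CCGGAA once, at bases 142 to 137, a motif found in 14.5% of promoters. Neither motif was found in the DUSP7 window. GGGCGG, the GC box, occurred 4 times for DUSP1, 2 times for DUSP7 and 2 times for SPRY2, and 42.6% of all promoters hold it. The shorter ETS core GGAA, which lies within CCGGAA and was found in 92.7% of promoters, occurred 3 times for SPRY2 and was not found for DUSP1 or DUSP7. GGAAGT (19.5% of promoters), the AP-1 motif TGACTCA with its reverse complement TGAGTCA (4.20%) and the CArG box of serum response factor (1.16%) were in none of the 3 windows. RefSeq windows 2 and 3 of SPRY2 and the SPRED1 window overlap the annotated gene and are not printed. They held neither TGACG nor CCGGAA, and window 2 of SPRY2 held GGAAGT once. No window was matched for ETV5. Matches describe the letters of these windows only.

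Levels are given in CPM, the reads of a gene scaled to the size of its library. The sizes were estimated from rounded CPM values, and the sources used here do not say whether a further scaling is part of them. The 4 libraries held 33522573 and 31138287 reads (control) and 30653210 and 32995248 reads (siAARS1) in listed genes, so 1 read was worth 0.0293 to 0.0324 CPM. Log2 fold changes are siAARS1 minus control of log2(CPM + 1), so that changes of low genes come out too small, with the SE and a Benjamini-Hochberg adjusted p over all 14199 genes tested in limma. Genes with an adjusted p under 0.05 are said to have risen or fallen. Since CPM is relative to the library, a lower share and less RNA per cell cannot be told apart, nor can fewer cells of a kind in the culture.

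AARS1, the targeted gene, is listed under its older symbol AARS (ENSG00000090861, chr16:70252295-70289543, minus strand). It measured 428 and 417 CPM in control cells and 292 and 298 CPM after knockdown. Both knockdown libraries lay below both controls, at 69.7% of control (log2 fold change −0.52, SE 0.0357, limma adjusted p = 2.52e-11). Of the gastric epithelial markers EPCAM, CDH1, KRT8, KRT18 and KRT19, 2 of 5 were analysed. KRT8 measured 24.8 and 25.2 CPM in control cells and 6.61 and 5.08 CPM after knockdown, and CDH1 measured 2.55 and 1.89 CPM against 0.680 and 1.05 CPM. Of 3 mesenchymal markers 2 were analysed. VIM measured 5131 and 5068 CPM in control cells and 4710 and 4600 CPM after knockdown (log2 fold change −0.13, limma adjusted p = 0.00303). Its value was 0.13 and −0.14 after the 2 composition corrections described below. ZEB1 went the other way, with 6.16 and 6.84 CPM in control against 50.03 and 52.3 CPM after knockdown. VIM, the mesenchymal filament vimentin, was thus abundant and CDH1, E-cadherin, low in both groups. Of 6 markers of cells the culture should lack, 1 was analysed here, ACTA2, at 94.6 and 95.1 CPM in control cells and 65.2 and 63.5 CPM after knockdown. The part of these marker differences in the results below was not tested.

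AARS1 knockdown was accompanied by called changes in most genes. Of 14199 genes tested, 70.7% were called, 38.0% lower and 32.6% higher, with a median log2 fold change of −0.05 (5399 lower and 4633 higher, or 8173 lower (57.6%) and 3306 higher (23.3%) when libraries were scaled to the median gene, which moved that median by −0.22). Against this background 4 of the 5 members were called, 3 lower and 1 higher. The share called is therefore close to what all genes gave, and the size of the changes and their behaviour under other processing describe the members better than the count does. The median log2 fold change of the 5 members was −0.58. With libraries scaled to the median gene, the log2 fold changes were −1.33 for ETV5, −1.01 for SPRY2, −0.80 for DUSP1, −0.33 for DUSP7 and 0.21 for SPRED1, all called. Relative to the median of all genes, the reported values of ETV5, SPRY2, DUSP1 and SPRED1 were −1.06, −0.74, −0.53 and 0.49.

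**Figure D1:**
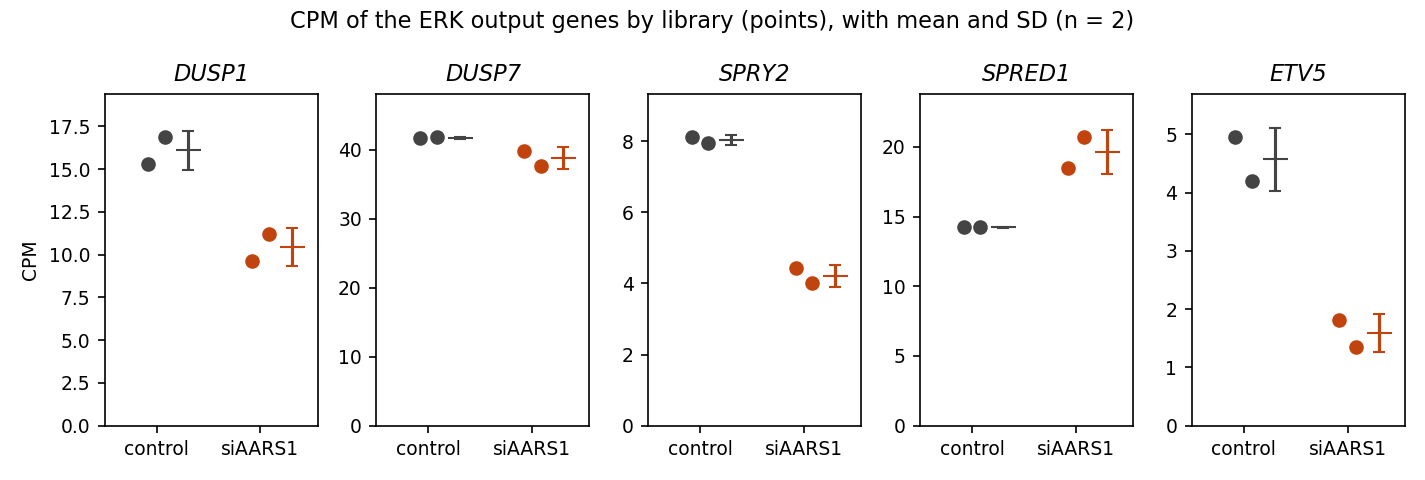
Levels of the 5 ERK output genes analysed, in CPM (vertical axes, starting at 0), with 1 point per library and the group mean and SD (n = 2) beside them. ETV5, SPRY2 and DUSP1 were lower in both siAARS1 libraries than in both control libraries, SPRED1 was higher in both, and DUSP7 lay between 37.6 and 41.9 CPM in all 4.

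ETV5 (ENSG00000244405, chr3:186046308-186110318, minus strand) encodes an ETS transcription factor of the PEA3 subfamily whose transcription follows ERK and FGF receptor signalling. It measured 4.96 and 4.19 CPM in control cells (169 and 133 reads) and 1.81 and 1.35 CPM after knockdown (56 and 45 reads). The groups did not overlap, and the gap between them was wider than the spread within either. The means were 4.57 ± 0.540 CPM and 1.58 ± 0.325 CPM (SD, n = 2), a 2.89-fold lower level in knockdown cells. On the log2(CPM + 1) scale the difference was −1.11 (SE 0.148, 95% interval −1.42 to −0.80, limma adjusted p = 8.66e-07). Since the gene is low, the pseudocount holds the value in: it was −1.48 with a pseudocount of 0.1 and −1.50 in edgeR on the reads recovered from CPM. ETV5 shares 164 exon bases on the same strand with DGKG, a diacylglycerol kinase gene, which stood at 1.19 CPM in control cells and 0.885 CPM after knockdown, so reads in that stretch could have been counted for either. An antisense gene, ETV5-AS1, shares no exon bases with it.

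SPRY2 (ENSG00000136158, chr13:80335976-80340951, minus strand) encodes Sprouty 2, an inducible inhibitor of signalling from receptor tyrosine kinases to RAS. It measured 8.12 and 7.94 CPM in control (277 and 252 reads) and 4.44 and 4.001 CPM after knockdown (137 and 133 reads). Replicates lay close together and the groups were well apart. The mean fell from 8.03 ± 0.128 CPM to 4.22 ± 0.308 CPM (SD, n = 2), with a log2 fold change of −0.79 (SE 0.117, 95% interval −1.04 to −0.55, limma adjusted p = 3.66e-06). The window with 1 TGACG and 1 CCGGAA match printed above is window 1 of this gene. Its windows 2 and 3 held neither motif.

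DUSP1 (ENSG00000120129, chr5:172768090-172771195, minus strand) encodes MKP-1, a nuclear phosphatase of ERK, p38 and JNK and an immediate early gene. It measured 15.3 and 16.9 CPM in control (522 and 536 reads) and 9.65 and 11.2 CPM after knockdown (298 and 373 reads). The spread within each group was smaller than the gap between the groups, which did not overlap. From 16.1 ± 1.12 CPM the mean fell to 10.4 ± 1.11 CPM (SD, n = 2), and its log2 fold change was −0.58 (SE 0.0962, 95% interval −0.78 to −0.38, limma adjusted p = 1.58e-05). An antisense gene annotated beside it, AC022217.3, shares no exon bases with DUSP1.

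DUSP7 (ENSG00000164086, chr3:52048919-52056550, minus strand) encodes a cytoplasmic phosphatase selective for ERK and closely related to DUSP6. It measured 41.7 and 41.9 CPM in control (1421 and 1329 reads) and 39.9 and 37.6 CPM after knockdown (1232 and 1251 reads). Both siAARS1 values lay below both controls, but the gap was smaller than the spread of the siAARS1 pair. Means were 41.8 ± 0.152 CPM and 38.8 ± 1.60 CPM (SD, n = 2), and the log2 fold change of −0.11 (SE 0.0581, 95% interval −0.23 to 0.01) did not pass the test (limma adjusted p = 0.107).

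SPRED1 (ENSG00000166068, chr15:38252326-38357249, plus strand) encodes a membrane protein that brings neurofibromin to RAS and so restrains RAF activation. It measured 14.2 and 14.3 CPM in control (485 and 453 reads) and 18.5 and 20.7 CPM after knockdown (572 and 689 reads). All knockdown values exceeded all control values. The mean rose from 14.3 ± 0.0382 CPM to 19.6 ± 1.56 CPM (SD, n = 2), with a log2 fold change of 0.43 (SE 0.0839, 95% interval 0.26 to 0.61, limma adjusted p = 0.000102). It was the only one of the 5 to rise in the reported fit.

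Per kilobase of transcript, DUSP7 was the most abundant of the 5 in control cells, at 12.5 CPM per kb, followed by DUSP1 at 7.97, SPRY2 at 2.97, SPRED1 at 1.83 and ETV5 at 1.11 CPM per kb. The median of all genes was 6.54 CPM per kb, so DUSP7 and DUSP1 stood above it and the others below. In siAARS1 libraries the levels were 11.6 for DUSP7, 5.17 for DUSP1, 2.52 for SPRED1, 1.56 for SPRY2 and 0.385 CPM per kb for ETV5, with SPRED1 and SPRY2 in exchanged places. Neighbours in both orders did not overlap between libraries.

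Across all genes the log2 fold change followed the base composition of the transcript. In the decile of genes with the lowest GC content, up to 39.0%, the median log2 fold change was 0.91 (quartiles 0.42 and 1.56), and in the decile with the highest it was −0.30. Features are those of the annotated transcript chosen for each gene, and which isoform the cells expressed was not measured. The 5 members sit at different points of this trend. SPRED1 has a long AT-rich transcript of 7780 nt with 38.9% GC (9.71% of genes have less), and its 3' UTR of 5585 nt holds 24 copies of the AU-rich pentamer ATTTA, or 4.30 per kb. DUSP7, with 59.2% GC over 3340 nt, has more GC than 80.1% of genes and no ATTTA in its 3' UTR of 1896 nt. DUSP1 has 55.1% GC over 2019 nt, SPRY2 48.3% over 2708 nt and ETV5 48.6% over 4111 nt, beside medians of 49.5% and 3031 nt for all genes. DUSP1 carries 4 ATTTA copies in a 3' UTR of 672 nt (5.95 per kb), SPRY2 has 2 copies and ETV5 has 4 (1.72 per kb), while the median of all genes was 2 copies and 1.58 per kb.

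**Figure D2:**
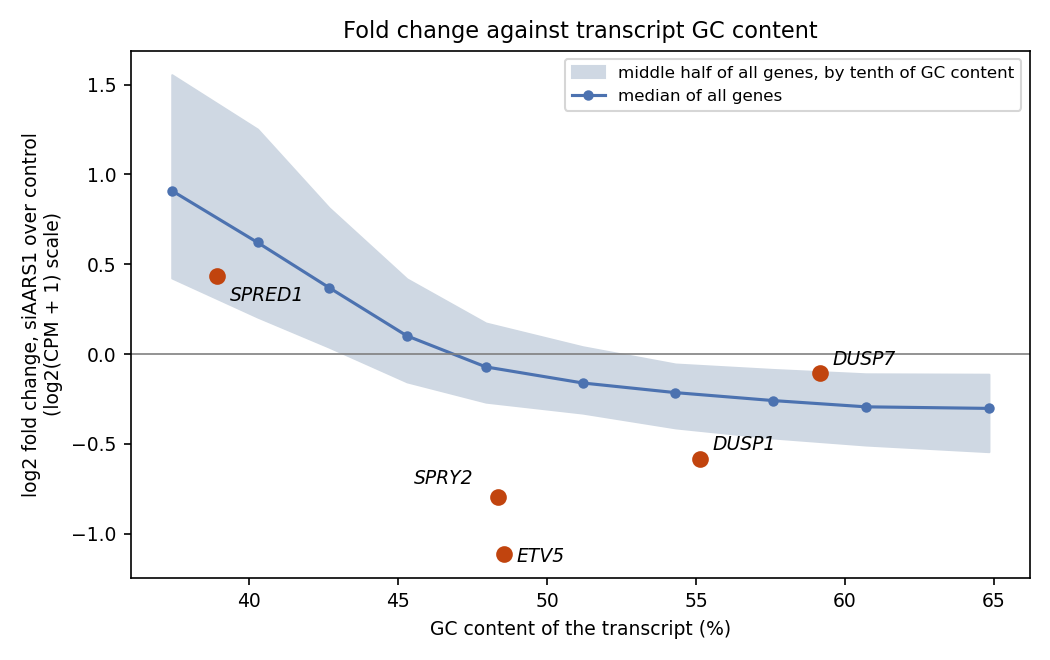
Log2 fold change (siAARS1 minus control) against transcript GC content in percent, with the median (line) and quartiles (band) of all genes in each GC decile and the 5 members as labelled points. Medians fell from 0.91 in the decile with least GC to −0.30 in the decile with most, SPRED1 (0.43), ETV5 (−1.11), SPRY2 (−0.79) and DUSP1 (−0.58) lay below the median of their own deciles and DUSP7 (−0.11) above it.

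A first correction took the smooth trend with transcript GC content and length out of each library (GC-length correction). After it, ETV5 stood at −1.07, SPRY2 at −0.72 and DUSP1 at −0.32 (limma adjusted p = 2.82e-06, 1.44e-05 and 0.00587). These 3 genes thus remained lower, DUSP1 by less. SPRED1 turned from higher to lower, at −0.89 (limma adjusted p = 4.25e-09), since the trend took out 1.33. DUSP7 turned from lower to higher, at 0.21 (limma adjusted p = 0.000855). After the GC-length correction 33.3% of 13819 genes were called lower and 32.9% higher, and 5 of the 5 members were called, 4 lower and 1 higher. A second correction used the composition of coding sequence and 3' UTR instead (CDS-UTR correction) and gave −0.97 for ETV5, −0.74 for SPRY2, −0.21 for DUSP1, −0.49 for SPRED1 and 0.30 for DUSP7, again with all 5 called. After the CDS-UTR correction 35.7% of 12146 genes were called lower and 36.3% higher. AARS1, the targeted gene, stood at −0.31 after the GC-length correction and at −0.42 after the CDS-UTR correction. Either correction also takes out any true change that follows composition, and the source of the trend was not tested.

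**Figure D3:**
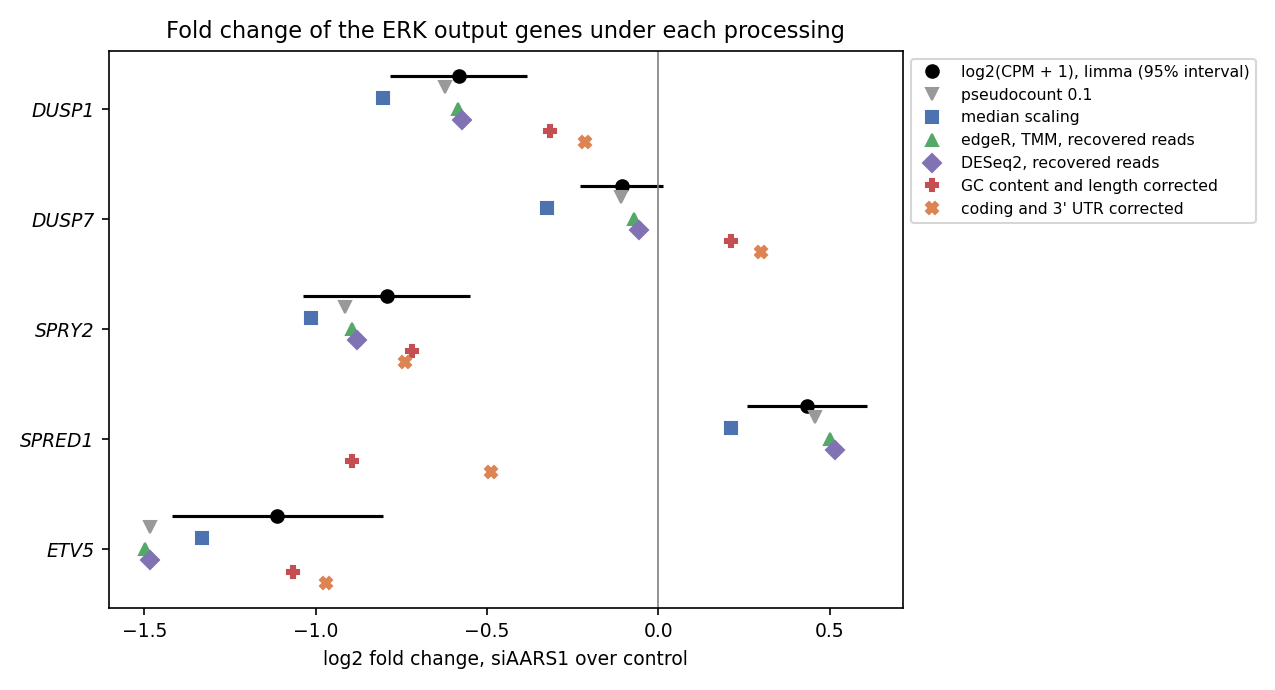
Log2 fold change (siAARS1 minus control) of each of the 5 members under the reported processing (black, with its 95% interval) and 6 of the alternatives, 1 symbol each. ETV5 (−1.50 to −0.97), SPRY2 (−1.01 to −0.72) and DUSP1 (−0.80 to −0.21) lay below 0 throughout, while SPRED1 (−0.89 to 0.51) and DUSP7 (−0.33 to 0.30) had values on either side of it.

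Other DUSP genes, listed here as MAP kinase phosphatases in a broad sense, were mostly lower as reported, but not after either composition correction. Of the 7 analysed, 5 fell, none rose and 2 were not called, where 38.0% of all genes were lower, with a median log2 fold change of −0.34 beside −0.05 for all genes. Of the 6 with a transcript, 3 were lower and 1 higher after the GC-length correction (median −0.16), beside 33.3% and 32.9% of all genes. After the CDS-UTR correction 2 were lower and 1 higher (median 0.02), beside 35.7% and 36.3% of all genes. DUSP8, a phosphatase directed at JNK and p38, measured 6.80 and 6.56 CPM in control cells and 3.30 and 3.22 CPM after knockdown (log2 fold change −0.85, limma adjusted p = 2.75e-06). DUSP10, of similar preference, was low, at 1.26 and 1.76 CPM against 0.453 and 0.632 CPM (−0.70, limma adjusted p = 0.00124). DUSP22 went from 67.0 and 64.6 CPM to 50.3 and 49.1 CPM (−0.40, limma adjusted p = 5.40e-07). DUSP8 and DUSP10 stayed lower after both composition corrections (−0.53 and −0.64, −0.75 and −0.74), whereas DUSP22 came to −0.08 and 0.06.

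Other genes that ERK induces or that feed back on it were described from a list of 18 entries, of which 14 were analysed. Of these, 9 fell, 2 rose and 3 were not called, with a median log2 fold change of −0.35. Over all genes 38.0% were lower and 32.6% higher, with a median of −0.05. After the GC-length correction 9 were lower and none higher (median −0.48), beside 33.3% and 32.9% of all genes. After the CDS-UTR correction 6 were lower and 3 higher (median −0.29), beside 35.7% and 36.3% of all genes. EGR1, an immediate early zinc finger factor and a classical ERK target, measured 2.52 and 3.78 CPM in control cells and 0.939 and 0.632 CPM after knockdown. It fell by 1.21 on the log2 scale (limma adjusted p = 2.25e-06), with the groups apart, and stood at −1.04 and −0.98 after the 2 corrections. IER3, an immediate early gene that prolongs ERK activity, went from 13.5 and 13.0 CPM to 6.09 and 5.87 CPM (−1.03, limma adjusted p = 1.05e-08), and stood at −0.73 and −0.45 after them. PHLDA1, induced by ERK and used in signatures of its output, measured 9.30 and 9.99 CPM against 7.29 and 6.74 CPM (−0.41, limma adjusted p = 0.00177), and stood at −0.96 and −0.38. CCND1, the cyclin D1 gene through which ERK drives entry into the cell cycle, measured 273 and 264 CPM in control cells and 260 and 248 CPM after knockdown, and was not called (−0.08, limma adjusted p = 0.0695). Its direction depended on the processing, since it was called lower under median scaling (−0.30, limma adjusted p = 8.51e-07) and higher after the CDS-UTR correction (0.30, limma adjusted p = 8.57e-10).

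The relatives of the members in this list differed among themselves. ETV1, the third PEA3 factor beside ETV4 and ETV5, measured 16.3 and 16.6 CPM in control cells and 27.8 and 27.6 CPM after knockdown, and rose by 0.72 (limma adjusted p = 1.58e-08). Its transcript has 38.1% GC, and its value was −0.64 after the GC-length correction and 0.24 after the CDS-UTR correction. SPRED2, SPRY1 and SPRY3 were picked with their values known, as relatives of SPRED1 and SPRY2. SPRED2 went from 30.5 and 32.4 CPM to 19.8 and 19.4 CPM and fell by 0.65 (limma adjusted p = 3.45e-08), opposite in direction to SPRED1, and stood at −0.59 and −0.41 after the corrections. SPRY1 (7.27 and 6.37 CPM in control, 6.54 and 6.32 CPM after knockdown) and SPRY3 (2.23 and 2.24 CPM, 2.40 and 2.74 CPM) were not called, at −0.07 and 0.14 (limma adjusted p = 0.588 and 0.395).

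Genes that act at RAS were mostly higher as reported, with smaller medians after the composition corrections. After the CDS-UTR correction the genes that restrain RAS were no longer mostly higher. Of 11 analysed genes of RAS activation, which couple receptors to RAS, 7 rose and 3 fell (median log2 fold change 0.82), where 32.6% of all genes were higher. After the GC-length correction 6 were higher and 4 lower, and after the CDS-UTR correction 7 and 2, with a median of 0.25 in each. Over all genes 32.9% were higher and 33.3% lower after the first of these, and 36.3% and 35.7% after the second. SOS1 and SOS2, the exchange factors that load RAS with GTP, went from 17.9 and 19.7 CPM to 67.3 and 79.5 CPM (1.91, limma adjusted p = 7.05e-16) and from 9.56 and 9.90 CPM to 27.2 and 28.1 CPM (1.42, limma adjusted p = 1.09e-12). FRS2, the docking protein of FGF receptors, went from 3.43 and 3.97 CPM to 12.9 and 13.4 CPM (1.595, limma adjusted p = 3.58e-11). These transcripts have 36.9% to 40.3% GC, in the range where all genes were mostly higher, and the values of SOS1, SOS2 and FRS2 were 0.40, 0.44 and 0.25 after the GC-length correction. After the CDS-UTR correction SOS1 and FRS2 stood at 0.25 and 0.81, and SOS2 was no longer called (−0.10, limma adjusted p = 0.218). Of the 8 genes that restrain RAS, 5 rose and 1 fell (median 0.64), beside 32.6% of all genes higher and 38.0% lower. After the GC-length correction 5 were higher and 2 lower (median 0.25). After the CDS-UTR correction 3 were higher and 2 lower (median 0.09), with the share higher close to the 36.3% of all genes. NF1, neurofibromin and the partner of SPRED1, measured 35.3 and 33.7 CPM in control cells and 124 CPM in both siAARS1 libraries (1.82, limma adjusted p = 2.65e-18), and 0.61 and 0.26 after the corrections. RASA1 and RASA2, further GTPase-activating proteins of RAS, rose by 1.13 and 1.299 (limma adjusted p = 2.24e-11 and 2.93e-08). RASA1 stood at 1.11 and 0.63 after the corrections, with a 3' UTR of only 44 nt in the transcript chosen for it. RASA2, at 0.20 and 0.16, was not called in either.

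Of the 12 genes of the RAF-MEK-ERK cascade, 8 fell and 4 rose (median log2 fold change −0.21), where 38.0% of all genes were lower and 32.6% higher. After the GC-length correction 5 were lower and 2 higher (median −0.00), beside 33.3% and 32.9% of all genes. After the CDS-UTR correction 6 were lower and 4 higher (median −0.08), beside 35.7% and 36.3% of all genes. MAPK3 (ERK1) went from 67.3 and 70.7 CPM to 46.7 and 44.5 CPM (−0.59, limma adjusted p = 2.18e-09), and stood at −0.24 and −0.15 after the corrections. MAP2K1 and MAP2K2, which encode MEK1 and MEK2, both fell by 0.35 (limma adjusted p = 2.34e-05 and 6.59e-08), and MAP2K1 stood at −0.21 and −0.11 and MAP2K2 at 0.03 and 0.08 after them. SHOC2, a scaffold that helps RAF become active, went from 4.99 and 5.48 CPM to 21.7 and 20.8 CPM (1.84, limma adjusted p = 2.53e-13). RPS6KA3 (RSK2, a kinase downstream of ERK) and BRAF rose by 1.06 and 1.02 (limma adjusted p = 2.19e-11 and 3.85e-10). SHOC2 stood at 0.80 and 0.67 after the corrections and RPS6KA3 at −0.19 in both. BRAF was not called after the GC-length correction (0.04) and was called higher after the CDS-UTR correction (0.40, limma adjusted p = 1.92e-05).

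Among 12 transcription factors and repressors at ERK target genes, 4 fell and 4 rose, close to the shares of all genes (38.0% and 32.6%), with a median log2 fold change of −0.00. There were 9 lower and 3 higher under median scaling, 3 lower and 6 higher after the GC-length correction, and 2 lower and 7 higher after the CDS-UTR correction. In the same order, the shares of all genes were 57.6% and 23.3%, 33.3% and 32.9%, and 35.7% and 36.3%. GABPA, an ETS activator, measured 4.46 and 5.52 CPM in control cells and 26.8 and 27.9 CPM after knockdown (2.25, limma adjusted p = 1.22e-14), and 0.97 and 1.26 after the corrections. ELK4, a ternary complex factor, and CREB1, which binds the TGACG core, rose by 1.43 and 1.26 (limma adjusted p = 3.80e-14 and 9.33e-13), and the corrections differed on them. After the GC-length correction ELK4 was not called (−0.05) and CREB1 was lower (−0.31, limma adjusted p = 0.000163), while after the CDS-UTR correction both were higher, at 0.88 and 0.73 (limma adjusted p = 1.29e-13 and 3.77e-11). CIC, capicua, which represses ETV5 and other PEA3 genes until ERK removes it, measured 90.004 and 93.1 CPM in control cells and 99.8 and 98.5 CPM after knockdown (0.11, limma adjusted p = 0.0257). Its direction depended on the processing, at −0.11 under median scaling (limma adjusted p = 0.0393), 0.41 after the GC-length correction (limma adjusted p = 9.74e-09) and −0.08, not called, after the CDS-UTR correction (limma adjusted p = 0.0635). SRF, serum response factor, went from 64.8 and 67.5 CPM to 59.0 and 52.9 CPM (−0.24, limma adjusted p = 0.000660), and stood at 0.12 and 0.09 after the corrections.

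**Figure D4:**
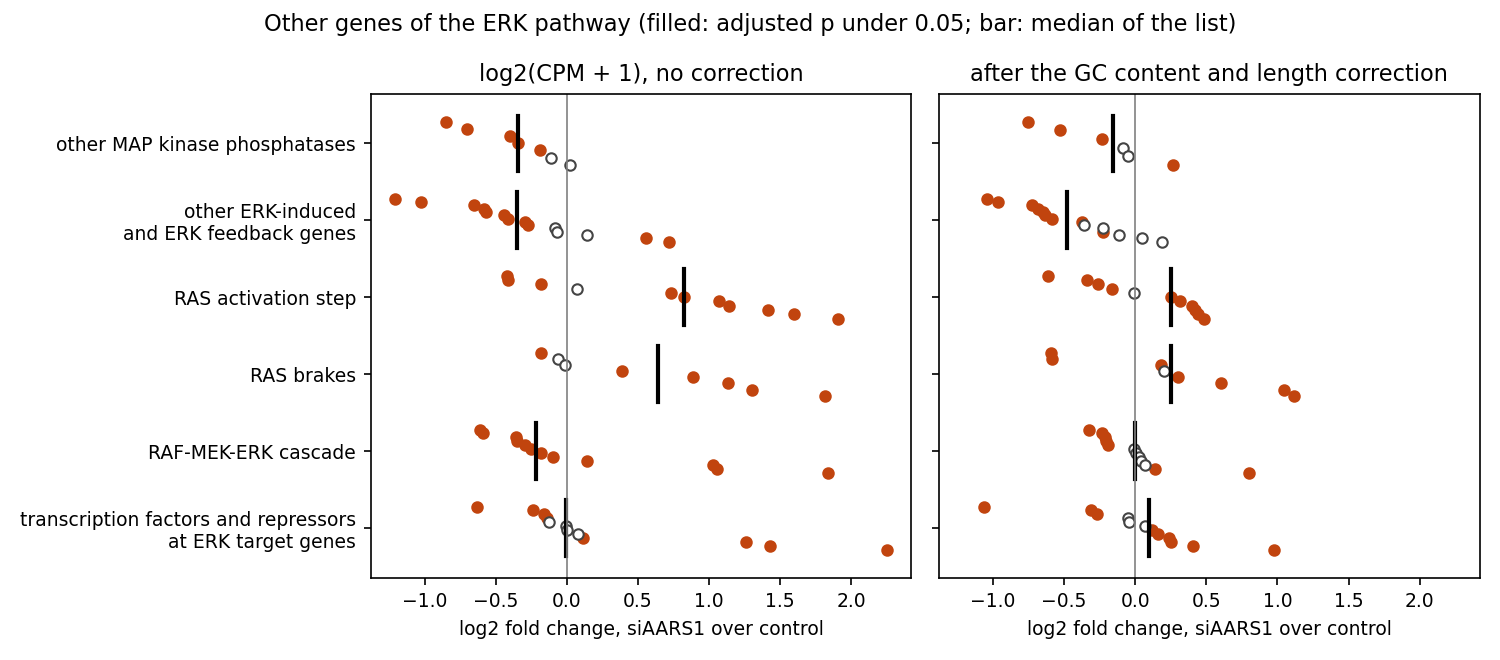
Log2 fold change (siAARS1 minus control, horizontal axis) of each analysed gene, in rows by its place in the ERK pathway, as reported (left) and after the GC-length correction (right), with called genes filled and the median of each list as a bar. As reported, the RAS activation and RAS brake genes lay mostly above 0 (medians 0.82 and 0.64), and the MAP kinase phosphatases and ERK-induced genes mostly below (medians −0.34 and −0.35). After the correction on the right the 2 RAS medians were 0.25 each.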

How the data were processed

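RNA-seq of 4 HGC27 libraries was analysed, with 2 control and 2 siAARS1 libraries grouped by sample title. The authors deposited 1 table of CPM for 14431 genes. Their processing notes name RSEM 1.3.3 and hg38. The aligner, annotation, strand setting and filter are not given in the sources used here. Reads were recovered from CPM (100% of values up to 6000 reads were whole within 0.1 read). Replicates differed beyond sampling noise (chi-square per gene 3.63 and 3.62).

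limma 3.58.1 (R 4.3.3, eBayes with trend) was applied to log2(CPM + 1) for the 14199 genes averaging 1 CPM or more in either group, with Benjamini-Hochberg adjustment and a threshold of 0.05. The alternatives were a pseudocount of 0.1, no filter, median scaling, a replicate block, leaving out each library, edgeR 4.0.16, DESeq2 1.42.0, corrections for transcript composition (mgcv 1.9.3) and a threshold of 0.01. Transcripts and coordinates were from GENCODE v29 (GRCh38), matched for 97.2% of genes, and promoters from RefSeq, matched for 4 of the 5 members. For each gene a coding transcript tagged as principal was preferred, then the one with the longest coding sequence. The limma script was run on simulated data with few changed genes and no trend with composition. Most genes were called in the real data, so that run does not bear on how calls behave here.

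The members and gene lists were chosen with earlier results of these data known. Named genes were every member, AARS1, up to 3 called genes of each list with the largest change, and EGR1, PHLDA1, CCND1, MAPK3, MAP2K1, MAP2K2, CIC and SRF. A further gene that the rule names is not reported here.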

Additional observations from a re-analysis of the deposited data

How the results depend on the processing

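ETV5, SPRY2 and DUSP1 were lower and called in all 15 alternatives, of which 4 leave out a library. DUSP7 came to 0.21 after the GC-length correction, 0.21 with the replicate block added to it, 0.30 after the CDS-UTR correction, and −0.33 with a call under median scaling. SPRED1 came to −0.89, −0.89 and −0.49 in the same 3 corrections, and the cause was not tested. Called genes of the other MAP kinase phosphatases numbered 3 after the CDS-UTR correction (2 lower, 1 higher), and those of the RAF-MEK-ERK cascade 7 after the GC-length correction and 7 after that correction with the block added. Median scaling moved the median of all genes by −0.22 and the calls to 8173 lower and 3306 higher. With the replicate number as a block, 5619 genes were called lower and 4770 higher, and the calls of the 5 members did not change. No label says whether same-numbered libraries shared a culture or a day (correlation of their deviations 0.118, 2 pairs). When each library was left out in turn, DUSP7 ranged from −0.15 to −0.07 without a call and SPRED1 from 0.36 to 0.51, and 4 of the 5 members were called in each. These fits leave a group with 1 library, which is assumed to vary like the other group's pair, so they bear on the values and add little on the calls. DESeq2 called 3856 genes lower and 4499 higher, and edgeR with TMM 4874 and 4932. Precision was lowest for ETV5, with 45 to 169 reads per library.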
